A study of Homo sapiens with 4 samples.

Results

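MALAT1 and NEAT1, a pair of abundant long noncoding RNAs that stay in the nucleus, were examined together with 8 long noncoding genes that carry small nucleolar RNAs (snoRNAs) in their introns, in pancreatic cancer cells before and after selection for resistance to AMG510. These 10 genes were chosen by name with the same comparison already in view, since MALAT1 and NEAT1 were selected on their higher level in the resistant libraries. Their differences between the groups are therefore given as a description, and a count of calls among them is no test of them. The 10 genes are among 57773 listed gene IDs, and all 10 were among the 16090 genes with enough counts to be tested.

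The cells were MIA-PaCa2, an established human pancreatic cancer line, and every library was made from their polyadenylated RNA. AMG510 (sotorasib) is a targeted cancer drug. The untreated group comprised 2 libraries from cells grown without the drug. The resistant group comprised 2 libraries from populations raised over 2 months in increasing doses, up to 5 µM. The labels do not say whether the drug was present when RNA was collected, nor whether the replicates were cultured apart from the start, so every p-value measures only the spread between these libraries. The title of resistant replicate 2 names AMG510 but its treatment tag AMG511, and it was kept in the resistant group.

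Depth lay between 30146559 and 38052558 expected counts per library. A gene is called here when edgeR's quasi-likelihood test gave it an adjusted p under 0.05. That held for 5463 tested genes (34%), with higher levels in resistant cells for 2669 (16.6%) and lower ones for 2794 (17.4%), and for 2832 genes without untreated replicate 1. Levels are normalised read counts, scaled to library size (CPM), and a count of 0 allows up to 3 counts, or 0.0801 to 0.104 CPM. Intervals and floors cover counting error or the spread between these libraries, not differences between separate experiments. The keratins KRT8 and KRT18, markers of epithelium, stood at 957 to 3091 CPM in every library, whereas EPCAM, CDH1 and KRT7 were at 2.09 CPM or less.

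MALAT1 lies at nuclear speckles, where splicing factors gather. NEAT1 is the scaffold of paraspeckles, nuclear bodies built by its long isoform together with proteins such as SFPQ, NONO and PSPC1. Both are transcribed from adjacent genes, and neither MALAT1 nor the long form of NEAT1 ends in an ordinary poly(A) tail: RNase P and RNase Z cut off a tRNA-like piece and leave a 3′ end that folds into a triple helix. GAS5 and the SNHG genes work differently. Their introns are cut out and trimmed into snoRNAs, which guide the chemical modification of ribosomal RNA, and the spliced exons that remain form a long noncoding RNA. Several of these spliced RNAs are known to be drawn into translation and degraded by nonsense-mediated decay, and several start with a run of pyrimidines like that of ribosomal protein mRNAs.

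The 3′ elements of MALAT1 and NEAT1 are shown because they mark what these RNAs share and what sets them apart from the host genes. Capitals mark, from 5′ to 3′, a first U-rich motif (TTTCTTTT), a second U-rich motif (TTTGCTTTT) and an A-rich tract (AAAGCAAAA), written with T for U. The motifs were taken from what is known of these RNAs, so finding them there is no result.
MALAT1: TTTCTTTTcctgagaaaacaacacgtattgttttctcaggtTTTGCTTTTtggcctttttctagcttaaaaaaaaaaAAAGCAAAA
NEAT1: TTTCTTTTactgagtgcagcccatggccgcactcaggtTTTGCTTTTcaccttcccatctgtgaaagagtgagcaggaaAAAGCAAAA
The MALAT1 element covers positions 8270 to 8355 of a transcript of 8708 bases (GENCODE 29), with 353 bases after it. The NEAT1 element covers positions 22656 to 22743 and is the last stretch of its transcript of 22743 bases. Aligned with each other, they had 62 identical positions, 17 mismatches and 16 gaps (65.3% identity). Of 206694 annotated transcripts searched on the transcript strand, these 2 held all 3 motifs in this order, with gaps of 20 to 80 and 10 to 80 bases, and no host gene did.

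For the host genes the start of transcription is shown, where a pyrimidine run may stand. RefSeq promoter windows (GRCh38.p14) were examined for 7 of the 10 genes, 6 of them hosts, and are cut here to 30 bases before and 30 after the start. No window of NEAT1, SNHG6 or SNHG15 was examined, which does not mean that RefSeq lists none for them. The host counts below therefore leave out SNHG6 and SNHG15, whereas the counts over all windows were not limited to the genes examined. Capitals mark the run of C or T from the first transcribed base.
SNHG5, chr6:85678704-85678763 (minus strand): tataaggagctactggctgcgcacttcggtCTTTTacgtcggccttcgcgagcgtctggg
SNHG12, chr1:28581844-28581903 (minus strand): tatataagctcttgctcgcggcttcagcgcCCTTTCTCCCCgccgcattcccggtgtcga
SNHG1, chr11:62855856-62855915 (minus strand): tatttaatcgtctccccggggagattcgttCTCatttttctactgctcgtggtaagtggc
GAS5, chr1:173869016-173869075 (minus strand): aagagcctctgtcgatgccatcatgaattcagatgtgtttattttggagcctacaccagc
A start with C followed by at least 4 further C or T was present in 2 of the 6 host windows, those of SNHG5 and SNHG12. The same feature was present in 47 of 78 windows of ribosomal protein genes (60.3%) and in 1429 of all 35116 windows (4.07%). Only the start base listed in RefSeq was used, so a run at another start, or a few bases away, was not counted. CACGTG, TGACGTCA and, 40 to 11 bases before the start, TATAAA were also searched, the first pair on both strands of the 300-base promoter windows and the last on the coding strand. None was in the 6 host windows, against 7.26%, 1.85% and 2.34% of all windows, and the absence says only that these letters are not there.

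MALAT1 and NEAT1 were several-fold higher in both resistant libraries, while the log2 fold changes of the 8 host genes lay between -0.45 and 0.28. MALAT1 (ENSG00000251562, a lincRNA on chromosome 11) stood at 150 and 155 CPM in untreated replicates 1 and 2 and at 716 and 722 CPM in resistant replicates 1 and 2. The groups were far apart and replicates within each group nearly equal. Its mean went from 152 ± 3.66 to 719 ± 4.06 CPM (SD, n = 2 each), a ratio of 4.72 and a log2 fold change of 2.24 (SE 0.17).

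NEAT1 (ENSG00000245532, a lincRNA on chromosome 11) stood at 269 and 364 CPM in the untreated libraries and at 1731 and 2734 CPM in the resistant ones. Both resistant libraries were above both untreated ones, and the resistant ones differed 1.58-fold from each other. The mean went from 316 ± 66.6 to 2232 ± 709 CPM, a ratio of 7.05 and a log2 fold change of 2.82 (SE 0.26). Single pairs of a resistant and an untreated library gave ratios between 4.76 and 10.1. The ratio of NEAT1 to MALAT1 CPM was 1.80 and 2.35 in the untreated libraries and 2.42 and 3.79 in the resistant ones. The deposited counts are per gene, so the short and long forms of NEAT1, of which only the long one forms paraspeckles, were not separated. The libraries were made from polyadenylated RNA, while MALAT1 and the long form of NEAT1 lack an ordinary poly(A) tail. How much of each was captured was not measured, so their CPM, ranks and ratios may not reflect their abundance in the cells. In bulk libraries, more RNA per cell and more cells with a high level cannot be told apart.

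Together MALAT1 and NEAT1 made up 0.0407% and 0.0543% of all counts in the untreated libraries and 0.235% and 0.353% in the resistant ones. Among annotated lncRNAs ranked by CPM, NEAT1 was the 3rd and 2nd in the untreated libraries and the 1st in both resistant ones, and MALAT1 moved from the 9th to the 3rd. Of 35 lncRNAs with at least 32 CPM on average, NEAT1 had the largest log2 fold change and MALAT1 the 3rd largest. Among all 1680 tested lncRNAs, most of them rarer, they ranked 61 and 109. The share of counts from all other annotated lncRNAs was also higher, at 0.723% and 0.843% in untreated and 1.002% and 1.004% in resistant libraries. The part of RNA composition in the higher level of MALAT1 and NEAT1 was not tested.

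**Figure D1:**
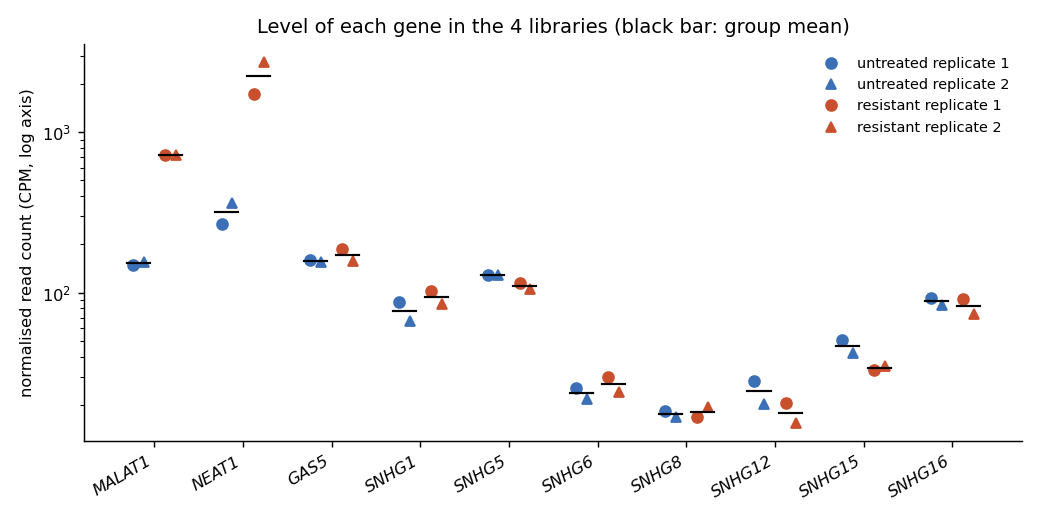
Normalised read count (CPM, log axis) of the 10 genes in the 4 libraries, with points for single libraries and a black bar for each group mean. MALAT1 and NEAT1 are separated between groups (152 against 719 and 316 against 2232 CPM on average), whereas the points of 6 of the 8 host genes overlap.

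The 8 host genes had log2 fold changes between -0.45 and 0.28, with a median of -0.02, 4 of them above and 4 below 0. The median of all tested genes was -0.01. Their summed level was 592 and 535.5 CPM in the untreated and 595 and 515.5 CPM in the resistant libraries, so the groups overlapped. Of the 10 genes 2 were among those called higher (16.6% of all tested genes), MALAT1 and NEAT1, and 0 among those called lower (17.4%). Both resistant libraries lay above both untreated ones for 2 of the 10 genes (34.6% of all tested genes) and below them for another 2 (36.3%). Because the comparison served to choose the genes, nothing is read from these counts.

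GAS5 (ENSG00000234741, chromosome 1), named for its accumulation in growth-arrested cells, stood at 160, 155, 186 and 158 CPM in untreated replicates 1 and 2 and resistant replicates 1 and 2. Resistant replicate 1 was above the other three, and resistant replicate 2 lay between the untreated libraries. The means were 158 ± 3.41 CPM and 172 ± 19.9 CPM, with a log2 fold change of 0.13 (SE 0.16, 95% interval -0.23 to 0.48). SNHG1 (ENSG00000255717, chromosome 11), host of several box C/D snoRNAs, stood at 87.2, 66.9, 103 and 84.6 CPM in the same order. Its groups overlapped, and its log2 fold change of 0.28 (SE 0.18, interval -0.12 to 0.68) was the highest among the hosts. Without untreated replicate 1 it was 0.51, and without untreated replicate 2 it was 0.09.

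SNHG5 (ENSG00000203875, chromosome 6), host of SNORD50 genes, stood at 129 CPM in both untreated libraries and at 115 and 106 CPM in the resistant ones. Its groups did not overlap, but the difference was small, with means of 129 ± 0.570 and 110.4 ± 6.71 CPM and a log2 fold change of -0.22 (SE 0.15, interval -0.56 to 0.11). SNHG15 (ENSG00000232956, chromosome 7) was the other host whose groups did not overlap. It stood at 50.8 and 42.0 CPM in untreated and at 32.9 and 34.9 CPM in resistant libraries, with a log2 fold change of -0.45 (SE 0.17, interval -0.83 to -0.07). This interval excluded 0, though SNHG15 was not called.

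SNHG12 (ENSG00000197989, chromosome 1) stood at 28.2 and 20.3 CPM in untreated and at 20.4 and 15.4 CPM in resistant libraries. The lower untreated and the higher resistant library met, and the log2 fold change was -0.44 (SE 0.23, interval -0.95 to 0.07), or -0.16 without untreated replicate 1. Its exons overlap those of TRNAU1AP, a selenocysteine tRNA factor on the opposite strand, which stood at 12.9 and 13.1 CPM in untreated and at 20.7 and 20.3 CPM in resistant cells. TRNAU1AP was called higher (log2 fold change 0.66, SE 0.20, adjusted p = 0.0298), a call that ended whichever library was left out (adjusted p up to 0.115). The strand setting of the counting is not known, so reads of SNHG12 and TRNAU1AP may not be separated. GAS5 also shares its locus with genes on the other strand: the exons of GAS5-AS1 (at most 0.240 CPM) overlap it, and those of ZBTB37, a zinc finger gene at 17.3 to 24.7 CPM, do not.

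SNHG16 (ENSG00000163597, chromosome 17) stood at 93.0 and 83.3 CPM in untreated and 91.7 and 73.5 CPM in resistant libraries, a log2 fold change of -0.09 (SE 0.17, interval -0.46 to 0.27). SNHG6 (ENSG00000245910, chromosome 8) stood at 25.7 and 21.7 CPM, then 29.8 and 24.2 CPM, a log2 fold change of 0.19 (SE 0.20, interval -0.25 to 0.63). SNHG8 (ENSG00000269893, chromosome 4) stood at 18.3 and 16.8 CPM, then 16.8 and 19.4 CPM, a log2 fold change of 0.05 (SE 0.21, interval -0.41 to 0.50). The groups of these 3 hosts overlapped, and the signs for SNHG8 and SNHG16 turned in 2 of the fits that left out a library. The intervals of GAS5, SNHG1, SNHG5, SNHG6, SNHG8 and SNHG16 lay within 0.68 of 0 in log2, so changes of the size of those of MALAT1 and NEAT1 were outside them.

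**Figure D2:**
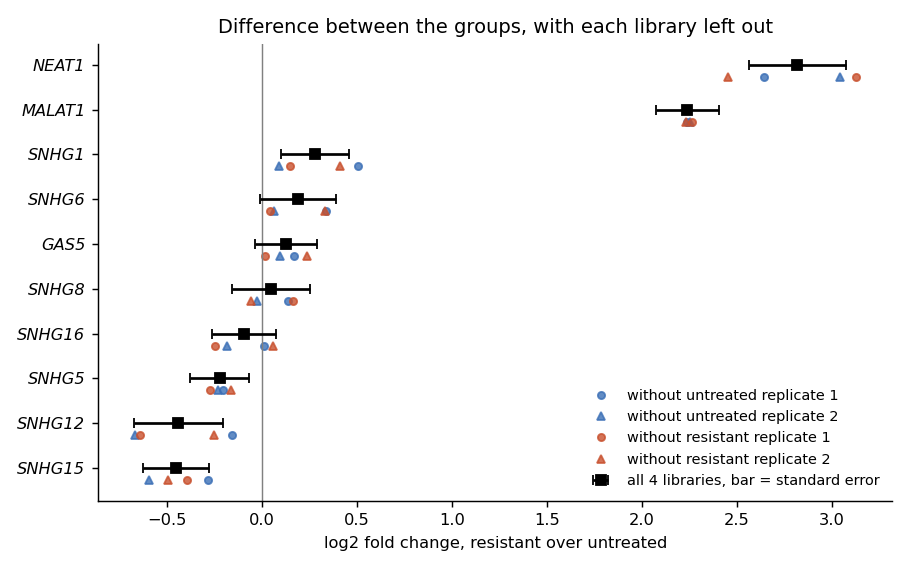
Log2 fold change (resistant over untreated) of the 10 genes with the standard error as a bar, and with each library left out in turn. MALAT1 stayed between 2.23 and 2.26 and NEAT1 between 2.45 and 3.13, while the hosts lay between -0.67 and 0.51.

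Levels of different genes can be compared per length, here as CPM per kilobase of the union of annotated exons. In the untreated libraries SNHG5 (45.9 ± 0.203) and GAS5 (43.4 ± 0.940) were highest and did not overlap each other. SNHG1 (20.5 ± 3.81), SNHG8 (19 ± 1.17), SNHG6 (19 ± 2.26), MALAT1 (17.2 ± 0.414), SNHG16 (16.4 ± 1.28), NEAT1 (13.9 ± 2.93) and SNHG15 (12.7 ± 1.70) followed, each overlapping its neighbour in this order. SNHG12 (5.69 ± 1.31) was lowest and stood apart. In the resistant libraries NEAT1 (98.1 ± 31.1) and MALAT1 (81.4 ± 0.460) were at the top and overlapped each other, and both exceeded GAS5 (47.4 ± 5.49) and SNHG5 (39.3 ± 2.39). The others followed in the order SNHG1 (24.9 ± 3.39), SNHG6 (21.6 ± 3.20), SNHG8 (19.6 ± 1.98), SNHG16 (15.4 ± 2.39), SNHG15 (9.30 ± 0.374) and SNHG12 (4.20 ± 0.834). The exon union of NEAT1 (22.8 kb) is set by its long form, so its value per kilobase is understated to the extent that the short form made up the counts. The unions of the hosts, such as 3.63 kb for GAS5 and 4.27 kb for SNHG12, join the exons of all annotated forms. Host values are likewise understated to the extent that shorter forms made up the counts. The order between genes, also of MALAT1 and NEAT1 against GAS5 and SNHG5, therefore depends on this choice of length.

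The snoRNAs themselves were hardly measured, as polyadenylated libraries are not made for them. Of 907 listed snoRNA and scaRNA IDs, 90 had any count, and all of them together held 0.00137% to 0.00156% of counts. The annotation places 19 snoRNAs inside 7 of the hosts, with 7 in SNHG1, 5 in SNHG12 and 3 in SNHG16. It places none in GAS5, whose snoRNAs were not analysed here. SNORD87, SNORD99 and SNORD1B were the 3 with a listed ID, and each had 0 counts in all 4 libraries. The levels above therefore concern the host RNAs, whose spliced and intron-keeping forms were not separated, and say nothing of the snoRNAs.

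The partners of these RNAs were followed with lists of genes, by their RNA level only, since protein was not measured. Counts in this and the next lists stand beside 16.6% of all tested genes called higher and 17.4% called lower. Transcripts of paraspeckle proteins, which assemble on NEAT1, were lower: of 16 tested, 11 fell, 0 rose and 5 did not pass, with a median log2 fold change of -0.71. SFPQ, a core paraspeckle protein, fell from 469 ± 108 to 185 ± 10.7 CPM (-1.34 in log2, SE 0.19, adjusted p = 0.000705), and PSPC1, its relative, from 50.2 ± 4.55 to 21.2 ± 0.352 CPM (-1.24, SE 0.17, adjusted p = 0.000631). NONO, a further relative, stood at 879 ± 2.15 and 680 ± 4.22 CPM and did not pass (adjusted p = 0.0962), nor did DAZAP1 (-0.32, adjusted p = 0.181). Summed over the list, levels were 6160 and 5123 CPM in untreated and 3170 and 3524 CPM in resistant libraries, the opposite direction to NEAT1. Without untreated replicate 1 the number that fell was 6, and without resistant replicate 1 it was 7.

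Nuclear speckle and SR proteins, the splicing factors found where MALAT1 lies, had 12 of 22 lower, 1 higher and 9 not passing, with a median of -0.66. SRSF6 fell from 170 ± 42.6 to 52.6 ± 5.36 CPM (-1.69, SE 0.20, adjusted p = 0.000233) and SRSF7 from 182 ± 32.3 to 83.6 ± 6.61 CPM (-1.12, SE 0.18, adjusted p = 0.00118). SRSF2 fell by 1.41 (SE 0.23, adjusted p = 0.00158) but overlaps MFSD11. SON and SRRM2, the scaffolds of the speckles, did not pass, at 0.03 (adjusted p = 0.92) and -0.37 (adjusted p = 0.0989), and both overlap other tested genes. The RNase P and RNase Z list, enzymes that form the 3′ ends shown above, had 4 of 10 lower, 0 higher and 6 not passing, with a median of -0.58. RPP25, which overlaps SCAMP5, fell by 1.26 (SE 0.26, adjusted p = 0.00423), POP4 by 0.87 (adjusted p = 0.00806) and RPP14, which overlaps HTD2, by 0.72 (adjusted p = 0.0157). POP7 (-0.48, adjusted p = 0.1) and RPP21 (-0.30, adjusted p = 0.27) did not pass. Without resistant replicate 1 POP7 was called lower (adjusted p = 0.0423) and RPP14 was not (0.0658). Without untreated replicate 1 only 1 of the 10 fell, with POP4 at an adjusted p = 0.0962 and RPP14 at 0.125.

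Transcripts of proteins that package snoRNAs were mostly lower. Of 17 tested snoRNP core and assembly genes 13 fell, 0 rose and 4 did not pass, with a median of -0.82 and 6 falling without untreated replicate 1. FBL, the methyltransferase fibrillarin, fell from 206 ± 21.0 to 90.4 ± 2.26 CPM (-1.19, SE 0.16, adjusted p = 0.000546). NOP58, a core protein of box C/D snoRNPs, fell from 118 ± 34.8 to 35.3 ± 6.06 CPM (-1.73, SE 0.22, adjusted p = 0.000596), and NOLC1, a chaperone of snoRNPs, fell by 1.21 (SE 0.18, adjusted p = 0.00102). SNU13 (0.13, adjusted p = 0.605) and ZNHIT6 (-0.44, adjusted p = 0.0857) did not pass. Summed levels were 2354 and 1747 CPM in untreated and 1064 and 1109 CPM in resistant libraries.

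Of 17 other lncRNA hosts of snoRNAs tested, 3 fell (17.6%, near the 17.4% of all tested genes). None of the 17 rose (16.6% of all tested genes) and 14 did not pass, with a median of -0.13. SNHG11 fell from 9.68 ± 0.397 to 4.13 ± 0.230 CPM (-1.23, SE 0.28, adjusted p = 0.00789). SNHG17 (-1.06, SE 0.25, adjusted p = 0.00823) and DANCR (-0.89, SE 0.26, adjusted p = 0.0237) fell as well, but neither passed without untreated replicate 1 (adjusted p = 0.0979 and 0.253). SNHG29 (450 and 412 CPM, adjusted p = 0.59) and SNHG3 (164 and 165 CPM, adjusted p = 0.991), both overlapping other tested genes, did not pass. Of the protein-coding hosts 13 of 28 were lower, 2 higher and 13 not passing (median -0.50), with 4 lower without untreated replicate 1. NOP58 (above) and NOP56, another box C/D core protein (266 ± 92.8 to 89.4 ± 7.95 CPM, adjusted p = 0.00125), are hosts themselves and fell. TAF1D, a factor of ribosomal RNA transcription that overlaps 3 tested genes, rose from 77.5 ± 5.84 to 155 ± 9.69 CPM (0.996, SE 0.16, adjusted p = 0.00124). EEF2, a translation elongation factor, and HSPA8, a chaperone, did not pass (0.16, adjusted p = 0.497, and -0.31, adjusted p = 0.364), though HSPA8 was called lower without untreated replicate 2 (adjusted p = 0.0398). Over 205 annotated protein-coding hosts, a class added after the data were seen, 50 fell (24.4%) and 24 rose (11.7%), with a median of -0.14. Over all tested protein-coding genes 19.8% fell and 17.8% rose. The matching class of 26 annotated lncRNA hosts outside the 10 genes had 3 lower, 3 higher (11.5% each) and 20 not passing, with a median of -0.07.

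Ribosomal proteins, of which 47 of 78 windows had a pyrimidine start like those of SNHG5 and SNHG12, were mostly not called, with 5 of 79 lower, 2 higher and 72 not passing (median -0.12). RPS21 (-0.70, adjusted p = 0.0088), RPL35A (0.66, adjusted p = 0.0143, overlapping IQCG) and RPS29 (-0.62, adjusted p = 0.0204) passed, but each lost its call without 2 of the 4 libraries (adjusted p up to 0.0631, 0.109 and 0.153): untreated replicate 1 or resistant replicate 2 for RPS21 and RPS29, untreated replicate 2 or resistant replicate 1 for RPL35A. RPLP0 (0.17, adjusted p = 0.45) and RPL13A (-0.14, adjusted p = 0.547) did not pass. No ribosomal protein was called lower without resistant replicate 2 or untreated replicate 1. Genes of nonsense-mediated decay, the route that degrades GAS5, had 4 of 14 lower, 1 higher and 9 not passing (median 0.02), with 2 lower without untreated replicate 1. The 3 named ones that fell belong to the exon junction complex: EIF4A3 from 126 ± 33.7 to 58.8 ± 0.731 CPM (adjusted p = 0.00218), MAGOH by 1.19 (adjusted p = 0.0022, overlapping MAGOH-DT) and MAGOHB by 1.19 (adjusted p = 0.00509, and 0.0511 without untreated replicate 1). UPF1, the central helicase (0.01, adjusted p = 0.964), and SMG1, the kinase that activates it (0.21, adjusted p = 0.387), did not pass.

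Further lncRNAs moved in both directions. Of 16 tested 6 rose, 3 fell and 7 did not pass, with a median of 0.52 and 3 rising without resistant replicate 2. LINC-PINT, a transcript induced by p53, rose from 14.8 ± 1.36 to 47.8 ± 0.130 CPM (1.69, SE 0.18, adjusted p = 0.00013) and overlaps MKLN1. CRNDE rose from 11.2 ± 1.27 to 30.6 ± 2.18 CPM (1.45, SE 0.20, adjusted p = 0.000629). OIP5-AS1 rose from 80.4 ± 2.04 to 178 ± 43.2 CPM (1.14, SE 0.19, adjusted p = 0.0015) and overlaps OIP5. NORAD, a cytoplasmic lncRNA (283 and 310 CPM, adjusted p = 0.565), and CYTOR (21.7 and 22.5 CPM, adjusted p = 0.86) did not pass. Over the 1670 tested annotated lncRNAs outside the 10, 15.3% rose and 7.60% fell, with a median of 0.25. Over 12858 protein-coding genes 17.8% rose and 19.8% fell, with a median of -0.04.

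**Figure D3:**
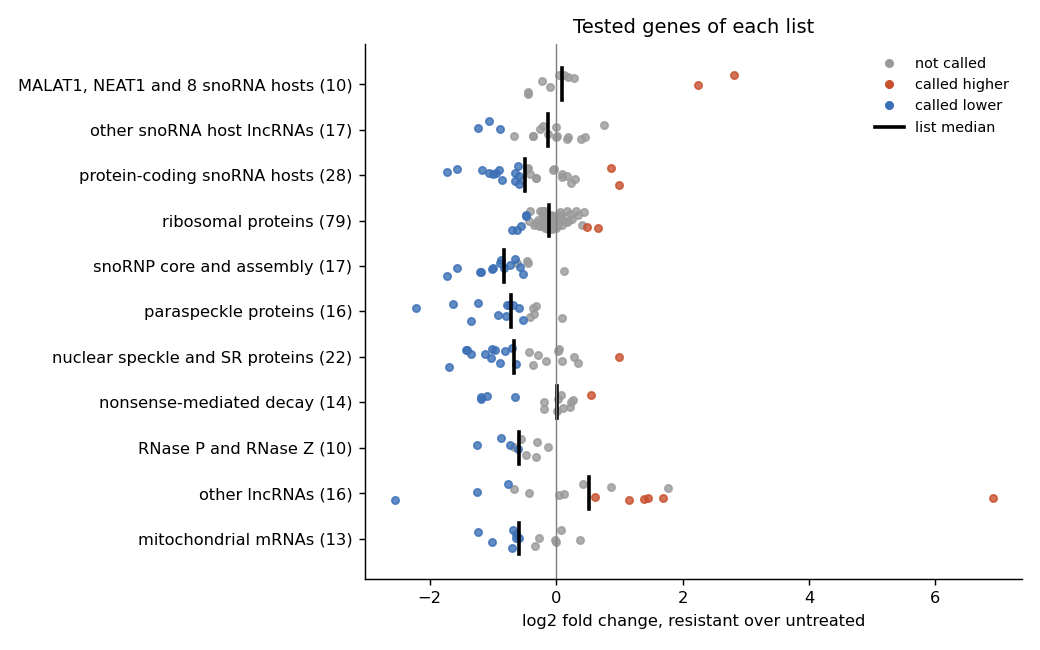
Log2 fold change (resistant over untreated) of the tested genes of each list, one point per gene, coloured by call, with a black bar at the list median and the number tested in parentheses. The snoRNP (-0.82), paraspeckle (-0.71) and speckle (-0.66) medians lie below 0. The 8 host genes shown with MALAT1 and NEAT1 lie between -0.45 and 0.28, and MALAT1 and NEAT1 stand at 2.24 and 2.82.

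NEAT1 and MALAT1 are neighbours on chromosome 11, and their surroundings were examined because the whole chromosome stood higher. Over its 738 tested protein-coding genes the median log2 fold change was 0.42, with 269 higher and 48 lower, whereas the medians of the chromosomes that hold the other genes lay between -0.18 and 0.22. No tested protein-coding gene lies between NEAT1 and MALAT1. On the NEAT1 side, TIGD3 (1.41, SE 0.27, adjusted p = 0.00311) and FRMD8 (0.95, SE 0.20, adjusted p = 0.00522) rose and SLC25A45 did not pass (0.48, adjusted p = 0.338). On the MALAT1 side, LTBP3 (0.02, adjusted p = 0.944) and ZNRD2 (0.17, adjusted p = 0.621) did not pass. Within 20 genes on each side 16 of 40 rose and 0 fell (9 rose without untreated replicate 1, 10 without resistant replicate 1, and 21 with 1 falling without resistant replicate 2), with a median of 0.44 and a range of -0.77 to 2.81, the highest being OVOL1, which stood at 1.76 CPM or less and was not called without untreated replicate 1 (adjusted p = 0.106). In 38 of the 738 genes the log2 fold change was at least that of MALAT1. SNHG1, on the same chromosome, stood at 0.28. The part of the chromosome's shift in the higher level of MALAT1 and NEAT1 was not tested.

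**Figure D4:**
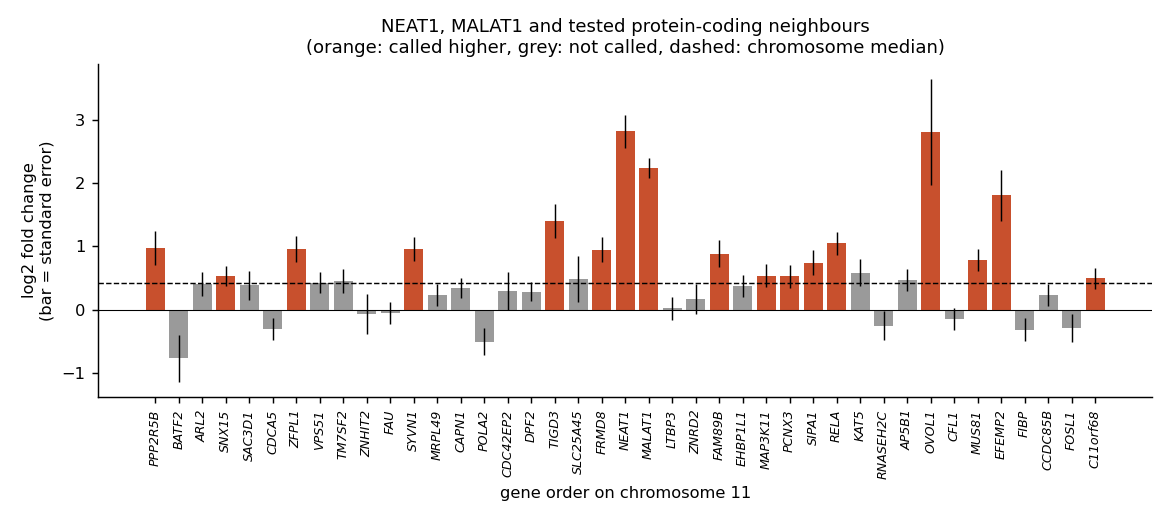
Log2 fold change (resistant over untreated, bars give the standard error) of NEAT1, MALAT1 and tested protein-coding neighbours in gene order, with the chromosome median of 0.42 dashed. NEAT1 and MALAT1 (2.82 and 2.24) stand above all neighbours shown but OVOL1 (2.81), which exceeds MALAT1 and has a wide error.

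The genes whose profiles over the 4 libraries were most like these were found among 6079 tested genes with at least 32 CPM on average, by the distance between log2 levels centred on each gene's mean. For MALAT1 they were MALT1 (distance 0.08), which stood at 22.8, 22.4, 102 and 110 CPM in untreated replicates 1 and 2 and resistant replicates 1 and 2, HMOX1 (0.10) and TLCD5 (0.15). For NEAT1 they were BBX (0.08), at 7.39, 9.80, 50.1 and 74.3 CPM, DSG2 (0.29) and BTG1 (0.37). The BBX values share the excess of resistant replicate 2 over replicate 1 seen for NEAT1, which follows from picking BBX by its profile. For GAS5 they were the pseudogene RPL36AP37 (0.01), CCM2 (0.04) and RNF5 (0.04), all between 46.1 and 59.3 CPM.

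Several measures of library content moved with the groups and are given beside these results. The 13 mitochondrial mRNAs held 4.25% and 4.59% of counts in untreated and 3.50% and 3.71% in resistant libraries, with 7 lower, 0 higher and 6 not passing (1 lower without untreated replicate 1, and 2 without resistant replicate 1). MT-CYB fell from 2087 ± 171 to 1031 ± 114 CPM (adjusted p = 0.0017). MT-CO3 and MT-ND2 fell by 0.70 and 0.68 but lost their calls when untreated or resistant replicate 1 was left out (adjusted p up to 0.148 and 0.232), and MT-CO1 (-0.01) and MT-ND4 (0.08) did not pass. Of 5 tested epithelial markers 2 fell, 0 rose and 3 did not pass. KRT8 fell (-1.23, adjusted p = 0.00268) and KRT18 fell (-0.88, adjusted p = 0.00692, not passing without untreated replicate 1 or resistant replicate 1), and these 2 overlap in the annotation. KRT19 (-0.50, adjusted p = 0.179, but 0.00523 without untreated replicate 2) and EPCAM (-0.30, adjusted p = 0.641) did not pass, nor did CDH1 (0.27).

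Fibroblast markers summed to 21.9 and 23.1 CPM in untreated and to 111 and 72.3 CPM in resistant libraries. Of the 7, 3 were tested and 2 rose, the collagen COL3A1 (2.09, adjusted p = 0.000122) and the receptor PDGFRB (4.86, adjusted p = 0.000769), while DCN and LUM, which define fibroblasts, were at 0.190 CPM or less and FAP at 0.118 CPM or less. Leukocyte markers summed to 11.6 to 36.0 CPM, with the leukocyte antigen PTPRC at 0.134 CPM or less. Of 3 tested leukocyte markers CD14 fell from 6.06 ± 0.0369 to 1.63 ± 0.162 CPM (-1.89, adjusted p = 0.00263), and CD68, at 9.37 to 33.8 CPM, and ITGAM did not pass. CD68 was highest in resistant replicate 1 and was called higher without resistant replicate 2 (1.49, adjusted p = 8.56e-05). Endothelial markers summed to 1.04 to 8.48 CPM, and acinar markers to 0.0592 CPM or less. TERC was the only one of 7 RNAs without a poly(A) tail with a matched ID, at 5 to 13 counts per library, too few to test.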

How the data were processed

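Gene expression was measured in 4 libraries, 2 untreated and 2 resistant, with groups taken from the sample titles. Each library's deposited table holds RSEM expected counts per gene, per the file headers, with no scaling between libraries. The submitters' processing notes list STAR 2.7.2b, RSEM 1.3.1 and GRCh37. The annotation release and strand setting are not given in the sources used here. Of the values 93.6% were whole, and they were rounded for testing.

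Genes were filtered with edgeR's filterByExpr, scaled with TMM and tested with edgeR 4.0.16 (glmQLFit, robust, and glmQLFTest), with Benjamini-Hochberg adjustment over all 16090 tested genes and a threshold of 0.05. Standard errors were derived from the F statistic (size of the log2 fold change over the root of F). Intervals are 95% t intervals from the same fit. The common biological coefficient of variation was 19.6%. CPM use TMM library sizes. Symbols were matched for 39538 of 57773 IDs. GENCODE 29, of another build, gave only classes, lengths, gene order, overlaps and transcript sequences, and promoters came from RefSeq.

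The 10 genes and all lists were chosen with earlier results of these data known. Named were the 10 genes, the 3 called genes of lowest adjusted p in each list and the 2 most abundant uncalled ones (fewer where a list had fewer), the 3 most similar profiles of MALAT1, NEAT1 and GAS5, and the 3 nearest tested protein-coding genes on each side of the pair. OVOL1, TRNAU1AP, ZBTB37, TERC and the single markers were named after their values were seen. Not every gene that the rule picks is reported here. Replicate numbers were not used to pair the libraries in the main fit. Deviations of same-numbered libraries were hardly correlated over genes (-0.06), which cannot tell whether they were cultured or processed in pairs. As alternatives, scaling was changed to RLE or upper-quartile, the filter was dropped or tightened to 1 CPM in 2 libraries, a replicate block was added, each library was left out, and the threshold was set to 0.01. DESeq2 1.42.0, limma-voom (limma 3.58.1) and the newer quasi-likelihood form of edgeR were also run; this last choice was made after seeing the data. R 4.3.3 was used.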

Additional observations from a re-analysis of the deposited data

How the results depend on the processing

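The log2 fold change of MALAT1 lay between 2.23 and 2.27 over 12 alternatives, a description, since the comparison served to choose it. At a threshold of 0.01 the number of genes called was 2832, with 1444 higher and 1388 lower, and 47 list genes were called in place of 84. With single libraries left out the ranges were 2832 to 5041 genes called, 1510 to 2548 higher, 1322 to 2493 lower and 40 to 83 list genes, each lowest without untreated replicate 1. The log2 fold change ranged from 2.45 to 3.13 for NEAT1, from 0.0913 to 0.51 for SNHG1, from -0.67 to -0.16 for SNHG12, from -0.06 to 0.16 for SNHG8 and from -0.25 to 0.06 for SNHG16; the cause was not tested. With the replicate block, 5275 genes were called, and MALAT1 stood at 2.24 and NEAT1 at 2.80. Whether the replicate numbers pair the libraries is not known, and the correlation of -0.06 cannot decide it, so this fit is given only for completeness. Upper-quartile and RLE scaling moved the median of all genes by less than 0.1. With 2 libraries a group, an exact permutation test of single genes could not go below a two-sided p of 0.333.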
